A study of Homo sapiens with 6 samples.

Results

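The genes described here are LTBP1 and 9 other genes of the extracellular microfibril in MKN28 cells depleted of LTBP1: LTBP2, LTBP3, LTBP4, FBN1, FBN2, ADAMTSL4, HMCN1, EFEMP1 and FBLN1. They were found by their symbols, which matched 10 of the 19960 genes in the deposited table. MKN28 is an established human gastric adenocarcinoma line, which registers of misidentified lines give as a derivative of another gastric adenocarcinoma line. Stable cells carrying a plasmid for a short hairpin RNA against LTBP1 (shLTBP1, 3 libraries) were set against stable cells carrying a scrambled hairpin (shSCR, 3 libraries), and the study asked what LTBP1 does in these cells. Both groups carry a plasmid, were kept in medium with fetal bovine serum, and differ, as far as the labels say, in the hairpin. The labels name 1 shLTBP1 plasmid, do not give the hairpin's sequence, and do not say whether either line is a clone or whether replicate libraries were grown apart. The p-values therefore rest on library-to-library spread, part or all of which may be technical.

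Microfibrils are thin filaments built of fibrillins, the large glycoproteins encoded by FBN1 and FBN2, and they form the scaffold on which elastic fibres are laid down. Latent TGF-beta binding proteins (LTBPs) are relatives of the fibrillins that bind to this scaffold and to fibronectin. LTBP1, LTBP3 and LTBP4 also bind the propeptide of TGF-beta, so that the latent growth factor is stored in the matrix, whereas LTBP2 does not bind latent TGF-beta. In most tissues these genes are expressed mainly by fibroblasts and other mesenchymal cells, and gastric epithelium makes less of them.

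The libraries were of epithelial character. Normalized counts, which are scaled and do not show sequencing depth, summed to between 30479879 and 30601022 in shLTBP1 and between 30831251 and 30941103 in shSCR libraries. All 7 epithelial markers (EPCAM, KRT8, KRT18, KRT19, CDH1, CLDN4 and CLDN7) were high in every library, the lowest single value being 9673 for EPCAM in an shLTBP1 library, with sums of 298420 to 322647 in shLTBP1 and 334632 to 355279 in shSCR. These sums are mostly KRT8 and KRT18. Of the 7 genes 2 rose (KRT19 and CLDN4), 3 fell (EPCAM, KRT18 and CDH1) and 2 did not pass. Those that passed are 71.4% of the 7, beside 53.1% of all tested genes. EPCAM, a cell adhesion molecule encoded on chromosome 2, fell to 9981 ± 466 in shLTBP1, against 21679 ± 972 in shSCR libraries (SD, n = 3 each; log2 fold change -1.12, limma adjusted p = 1.39e-07). Of 8 fibroblast markers, 6 (COL1A2, COL3A1, PDGFRB, DCN, THY1 and POSTN) stayed below 10 in all 6 libraries, and THY1 was listed at 0 in all of them. The sum of the 8 was 706 to 931 in shLTBP1 and 1095 to 1337 in shSCR, nearly all of it from COL1A1, a collagen chain. Without COL1A1 the sum was 40.1 to 58.5 in shLTBP1 and 0 to 3.75 in shSCR. That difference came mainly from LUM, which encodes the proteoglycan lumican and was at 41.5, 52.0 and 36.6 in shLTBP1 libraries but listed at 0 in all 3 shSCR libraries.

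Of the 10 genes, 8 had a mean normalized count of at least 10 over the 6 libraries and were tested, and FBN2 and EFEMP1 fell below this minimum. HMCN1 and ADAMTSL4 rose, LTBP1 fell, and LTBP2, LTBP3, LTBP4, FBN1 and FBLN1 did not pass the test. The test was limma's on log2(normalized count + 1), with Benjamini-Hochberg adjustment over 12789 genes and a threshold of 0.05. The 3 that passed are 37.5% of the 8, beside 53.1% of all tested genes, 26.3% as higher and 26.8% as lower. They include LTBP1, the target of the hairpin, whose fall is a check of the labels. The change was at least 2-fold for all 3. At least a 2-fold rise was found for 4.54% and at least a 2-fold fall for 4.39% of all tested genes. The values of the 2 groups did not overlap for the same 3 genes, and for 60.8% of all tested genes. The median log2 fold change of the 8 was 0.08, beside 0.0038 over all tested genes.

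**Figure D1:**
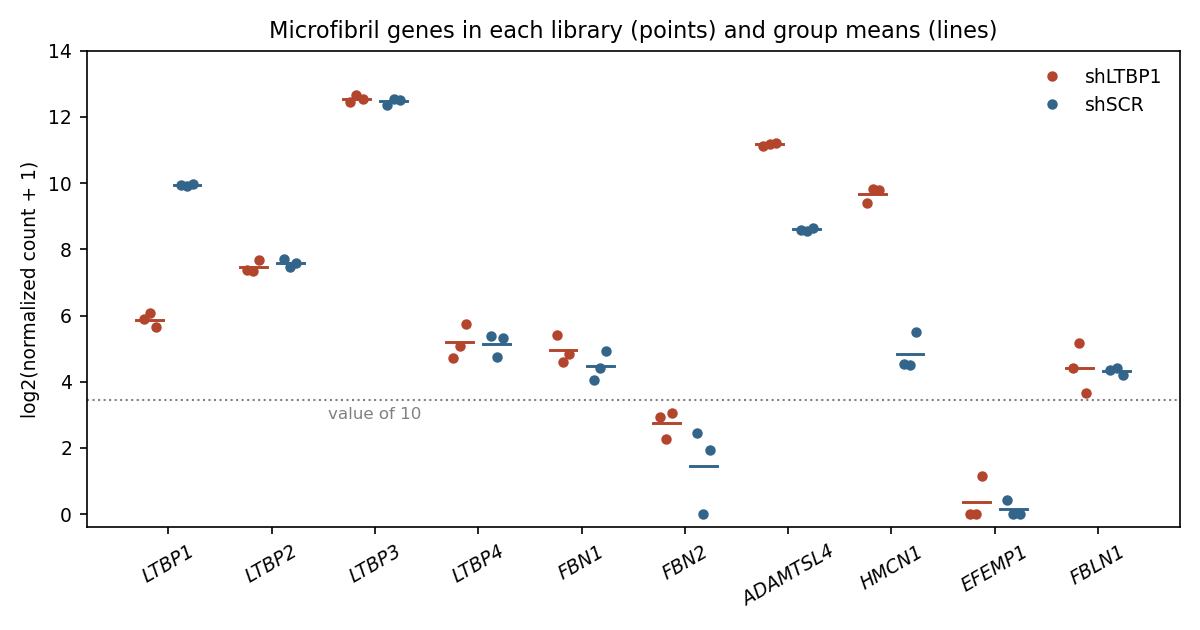
Log2(normalized count + 1) of the 10 microfibril genes, with shLTBP1 libraries (red) to the left of shSCR libraries (blue), points for single libraries and lines for the mean of 3. The groups stand apart for LTBP1, ADAMTSL4 and HMCN1 and overlap for the other genes, and FBN2 and EFEMP1 lie below the dotted line at a value of 10.

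LTBP1 itself (ENSG00000049323) is encoded by the plus strand of chromosome 2 between 32946972 and 33399509 (GRCh38). Its normalized count was 59.0, 66.7 and 49.0 in shLTBP1 libraries, against 977, 964 and 1011 in shSCR libraries. The mean in shLTBP1 was 5.92% of that in shSCR, so the targeted gene was low in every library labelled shLTBP1. In bulk libraries, fewer cells with LTBP1 RNA and less of it in each cell cannot be told apart. The fall ranked 5 among all tested genes, with a log2 fold change of -4.07 (standard error 0.12, limma adjusted p = 1.18e-08). The deposited table has 1 value for the gene, so that transcripts from its different starts are pooled. RefSeq (GRCh38.p14) gives LTBP1 3 starts, 1 upstream and 2 close together far downstream, which are the starts of its long and short forms. The stretches of 300 bases around the upstream start and the first downstream start (250 before and 50 after) are shown because the value above sums over both. Capitals, where present in this and later sequences, mark matches on either strand to GGGCGG (the GC box), GGCGCC (a GC-rich element bound by SMADs), TATAA or TGANTCA (the AP-1 element); the LTBP1 stretches hold none of them, and no matches of different motifs overlapped.
LTBP1 upstream start, chr2:32946703-32947002, plus strand: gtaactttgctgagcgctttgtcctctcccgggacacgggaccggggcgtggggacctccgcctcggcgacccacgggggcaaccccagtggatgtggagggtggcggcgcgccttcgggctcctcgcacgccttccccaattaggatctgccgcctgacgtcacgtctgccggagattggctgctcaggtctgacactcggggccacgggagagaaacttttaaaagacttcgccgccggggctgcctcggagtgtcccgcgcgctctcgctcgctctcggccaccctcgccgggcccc
LTBP1 downstream start, chr2:33134119-33134418, plus strand: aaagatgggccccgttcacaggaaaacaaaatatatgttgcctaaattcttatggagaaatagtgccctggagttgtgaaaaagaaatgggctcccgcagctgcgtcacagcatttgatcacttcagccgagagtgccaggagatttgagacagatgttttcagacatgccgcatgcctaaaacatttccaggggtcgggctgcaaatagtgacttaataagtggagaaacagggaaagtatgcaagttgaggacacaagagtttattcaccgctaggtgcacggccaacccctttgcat
The upstream stretch is 68.7% G and C and the downstream stretch 46.3%, beside a median of 58.7% over 35116 promoters. Of those promoters 45.0% hold GGGCGG, 19.2% hold GGCGCC, 20.4% hold TATAA and 7.71% hold TGANTCA.

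The genes around LTBP1 were also lower. Chromosome 2 as a whole was shifted, with a median log2 fold change of -0.56 over 852 tested genes, 88.8% of them below 0. Of the 10 tested neighbours on each side of LTBP1, 18 fell, beside 26.8% of all tested genes, 1 rose and 1 did not pass. Their median log2 fold change was -0.71. The one that rose was CRIM1, a membrane protein that binds BMPs, at 0.26 on the log2 scale. The neighbour that fell most was the next tested gene downstream, RASGRP3, which encodes a guanine nucleotide exchange factor for RAS proteins. RASGRP3 was at 116, 44.5 and 90.6 in shLTBP1 and at 551, 487 and 573 in shSCR libraries, a log2 fold change of -2.77 (standard error 0.28, limma adjusted p = 2.77e-05). RASGRP3 and CRIM1 were chosen after their values were seen. With the median of 25 tested genes on each side subtracted, the log2 fold change of LTBP1 was -3.48 (limma adjusted p = 1.80e-08). EFEMP1, the other of the 10 genes on chromosome 2, was too low to test.

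**Figure D2:**
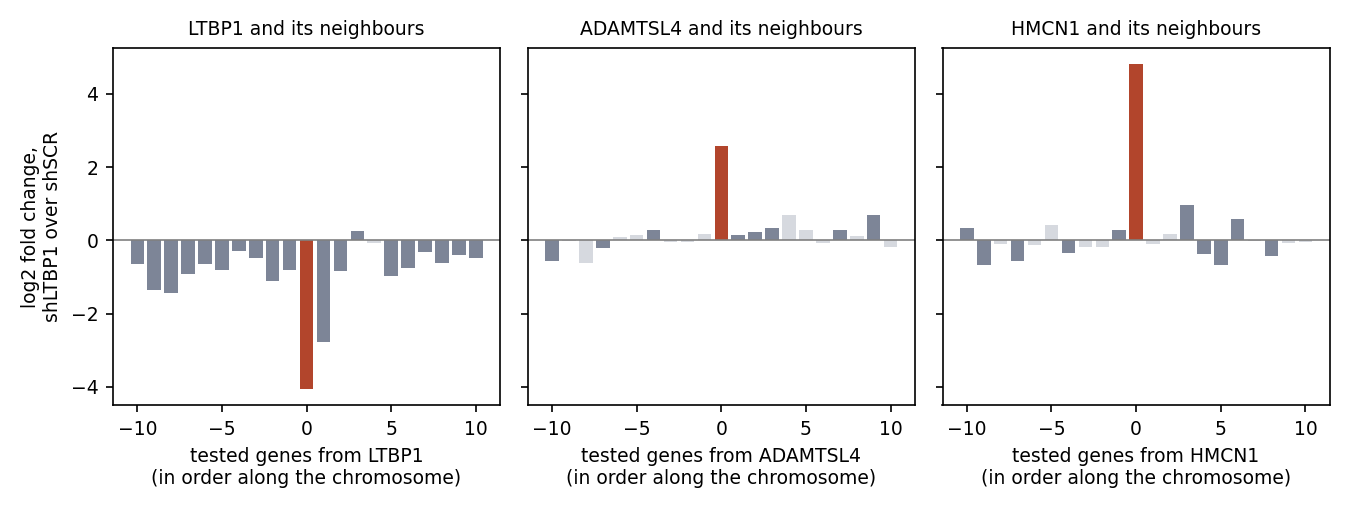
Log2 fold change, shLTBP1 over shSCR, of LTBP1, ADAMTSL4 and HMCN1 (red) and the 10 tested genes on each side of each in chromosomal order, dark grey where the limma adjusted p was under 0.05 and light grey otherwise. Most neighbours of LTBP1 lie below 0, with RASGRP3 at -2.77, while the neighbours of ADAMTSL4 and HMCN1 lie between -0.69 and 0.96.

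The other LTBP genes did not pass the test. LTBP3, which encodes a carrier of latent TGF-beta that is known for its part in bone and teeth, was the highest of the 10 genes, at 5629.8, 6430.5 and 5978 in shLTBP1 libraries and 5222, 5964 and 5865 in shSCR libraries. The libraries of the 2 groups overlap, and the log2 fold change was 0.08 with a 95% interval of -0.07 to 0.23 (limma adjusted p = 0.322). LTBP2 was at 166, 163 and 202 in shLTBP1 and at 209.8, 177 and 192 in shSCR libraries. Its log2 fold change was -0.13, with an interval of -0.41 to 0.16 (adjusted p = 0.43). LTBP4, a carrier of latent TGF-beta that also takes part in elastic fibre assembly, was low, at 25.4, 33.1 and 52.7 in shLTBP1 and 40.9, 25.7 and 38.9 in shSCR libraries. Its log2 fold change of 0.04 had an interval of -0.66 to 0.74 (adjusted p = 0.927), so that changes smaller than about this were not detectable at its level. The promoter of LTBP3, the most abundant of these RNAs, is shown for comparison with that of LTBP1; it holds 1 GC box and is 72.0% G and C.
LTBP3 first start, chr11:65558310-65558609, minus strand: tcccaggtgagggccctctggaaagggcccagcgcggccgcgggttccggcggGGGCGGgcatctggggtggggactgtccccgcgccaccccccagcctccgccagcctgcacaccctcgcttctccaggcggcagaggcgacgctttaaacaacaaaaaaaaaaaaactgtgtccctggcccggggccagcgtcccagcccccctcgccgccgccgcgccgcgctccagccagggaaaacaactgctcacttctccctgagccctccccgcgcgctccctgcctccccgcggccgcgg

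**Figure D3:**
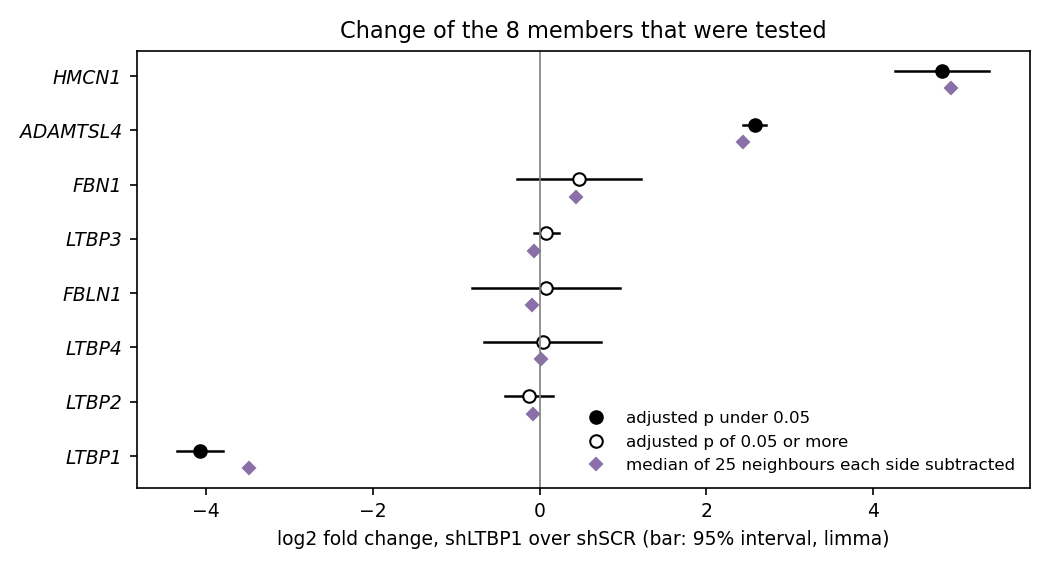
Log2 fold change, shLTBP1 over shSCR, of the 8 tested genes with 95% intervals from limma, filled where the adjusted p was under 0.05, and after subtraction of the median of 25 neighbours to either side (diamonds). HMCN1 at 4.82, ADAMTSL4 at 2.58 and LTBP1 at -4.07 lie far from 0, and the intervals of the other 5 genes cross 0.

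The RNA of the 4 LTBP genes was also described as a pool, on the scale of normalized count per kilobase of exon (the union of all annotated exons of a gene). LTBP2, which does not bind latent TGF-beta, is included in it as a relative of the other LTBPs. LTBP1 made up 1.29% ± 0.178 of the summed level of the 4 LTBP genes in shLTBP1 and 18.9% ± 1.01 in shSCR libraries (SD, n = 3 each). LTBP3 made up 94.8% ± 0.506 in shLTBP1 and 77.5% ± 1.57 in shSCR libraries, and was the main LTBP RNA in both groups. The groups did not overlap for either share. An exact two-sided permutation test gave p = 0.1 for each, the smallest p that 3 libraries against 3 allow (0.2 after Benjamini-Hochberg adjustment over 6 quantities). Shares add up to the whole, so the fall of LTBP1, the target of the hairpin, by itself raises the share of LTBP3. The level of LTBP3 was 584 ± 39.0 per kilobase in shLTBP1 and 552 ± 39.1 in shSCR libraries, which overlapped. The sum over all 4 genes was 616 ± 39.7 per kilobase in shLTBP1 and 712 ± 37.4 in shSCR libraries, without overlap (exact permutation p = 0.1, adjusted 0.2). This sum includes LTBP1, at 7.95 in shLTBP1 and 134 in shSCR libraries. The fall of LTBP1 by itself lowers the sum, so the test says nothing of the other LTBP genes. The sum over LTBP2, LTBP3 and LTBP4 was 608 ± 39.2 in shLTBP1 and 577 ± 36.7 in shSCR libraries, and the libraries overlapped (exact permutation p = 0.4, adjusted 0.6). The size of the shares depends on the length used. With the longest transcript of each gene in place of the exon union, LTBP1 made up 0.662% in shLTBP1 and 10.6% in shSCR libraries. On that scale the sum of all 4 was 1391 ± 91.4 in shLTBP1 and 1464 ± 88.4 in shSCR libraries, which overlapped (exact permutation p = 0.3, adjusted 0.6).

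**Figure D4:**
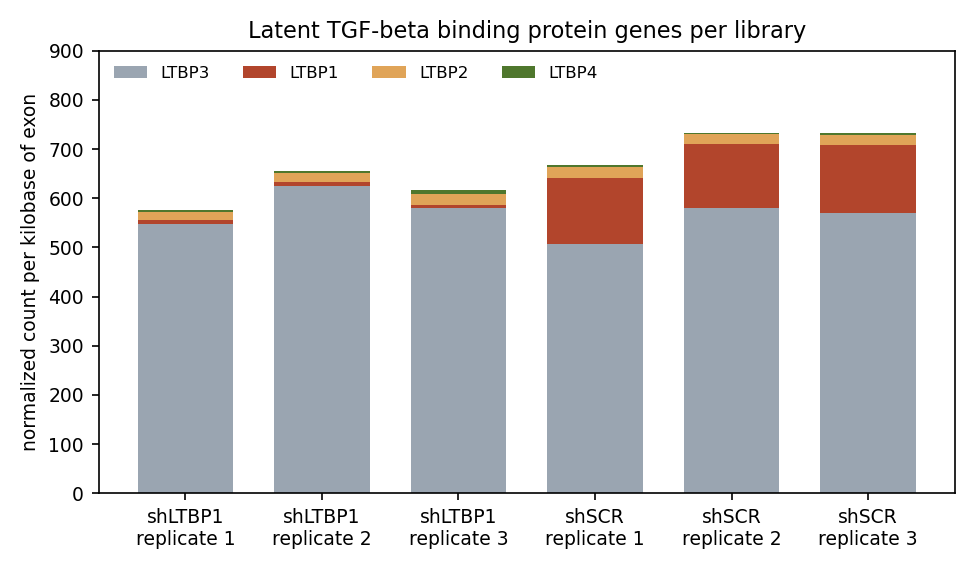
Normalized count per kilobase of exon of the 4 LTBP genes, stacked, in each shLTBP1 and shSCR library. LTBP3 (grey) fills most of every bar, and LTBP1 (red) makes up on average 1.29% of the bars of shLTBP1 and 18.9% of the bars of shSCR libraries.

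ADAMTSL4 (ENSG00000143382, plus strand of chromosome 1, 150549369 to 150560937) encodes a secreted ADAMTS-like protein that binds fibrillin-1 and is known for its role in the zonule that holds the lens. It was at 2240.1, 2314 and 2389.9 in shLTBP1 libraries, against 385, 376 and 401 in shSCR libraries. Every shLTBP1 library lay far above every shSCR library, and the spread within each group was small, with a coefficient of variation of 3.24% in shLTBP1 and 3.20% in shSCR. The mean was 5.98-fold higher in shLTBP1, with a log2 fold change of 2.58 (standard error 0.06, limma adjusted p = 3.84e-09). Of all tested genes 0.688% had a log2 fold change at least as high. Its 20 tested neighbours had a median log2 fold change of 0.13 and none exceeded 0.69. Of these 6 rose and 2 fell, so 8 of 20 passed, beside 53.1% of all tested genes. ECM1, a secreted matrix protein encoded next to it, was at 0.17 (adjusted p = 0.0624). In GENCODE 29, ADAMTSL4 is overlapped on the other strand by ADAMTSL4-AS1 and AL356356.1, which were not analysed here. The libraries are directional per the labels, but how strand was treated in the counting is not given in the sources used here. Whether reads from these RNAs were counted with those of ADAMTSL4 is therefore not known. Its promoter is printed because the gene rose; it is 82.3% G and C and holds 4 GC boxes and 1 GGCGCC.
ADAMTSL4 start, chr1:150549158-150549457, plus strand: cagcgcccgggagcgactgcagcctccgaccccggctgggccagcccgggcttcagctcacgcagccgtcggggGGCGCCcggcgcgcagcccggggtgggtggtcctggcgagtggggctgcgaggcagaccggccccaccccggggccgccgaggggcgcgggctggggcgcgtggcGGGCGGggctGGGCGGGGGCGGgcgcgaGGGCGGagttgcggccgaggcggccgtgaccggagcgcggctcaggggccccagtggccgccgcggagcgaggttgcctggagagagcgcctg
RefSeq promoters were matched to 8 of the 10 genes, all but HMCN1 and EFEMP1.

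HMCN1 (ENSG00000143341, plus strand of chromosome 1, 185734551 to 186190949) showed the largest fold change of the 10. It encodes hemicentin-1, a very large secreted protein of the fibulin family that lies at cell contacts and in basement membranes. It was at 671, 905 and 884 in shLTBP1 libraries and at 22.3, 21.7 and 44.3 in shSCR libraries. The shSCR libraries were uneven, with replicate 3 above the other 2, but even this library lay far below every shLTBP1 library. The means were 819.8 ± 129.6 in shLTBP1 and 29.4 ± 12.9 in shSCR (SD, n = 3 each), a ratio of 27.9. The log2 fold change was 4.82 (standard error 0.25, limma adjusted p = 3.87e-07) and ranked 10 among the rises of all tested genes. Without shSCR replicate 3 it was 5.15. HMCN1 lies on the same chromosome as ADAMTSL4 but far from it. Its 20 tested neighbours had a median log2 fold change of -0.10 and a range of -0.69 to 0.96. Of these 4 rose and 6 fell, so 10 of 20 passed, beside 53.1% of all tested genes. An antisense RNA, AL133553.1, overlaps HMCN1 and was not analysed here.

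The fibrillin genes were near the lower limit of measurement. FBN1, the main fibrillin of adult tissue, was at 41.6, 23.2 and 27.5 in shLTBP1 libraries and at 15.7, 20.5 and 29.6 in shSCR libraries. The groups overlap, and the log2 fold change of 0.47 had a 95% interval of -0.27 to 1.22 (limma adjusted p = 0.255). FBN2, the fibrillin that predominates in development, was at 6.67, 3.87 and 7.29 in shLTBP1 and at 4.50, 0 and 2.80 in shSCR libraries, below the minimum for testing. Fitted without that minimum, its adjusted p in limma was 0.128. FBN2 overlaps SLC27A6 on the opposite strand, a gene with its own values in the table.

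The fibulins FBLN1 and EFEMP1, calcium-binding glycoproteins of elastic fibres and basement membranes, were low as well. FBLN1 was at 20.3, 34.7 and 11.5 in shLTBP1 and at 19.6, 20.4 and 17.3 in shSCR libraries. The 3 shLTBP1 libraries lie on both sides of the shSCR libraries, with a coefficient of variation of 52.9% in shLTBP1 and 8.30% in shSCR. Its log2 fold change was 0.08, with an interval of -0.80 to 0.96 (limma adjusted p = 0.878). EFEMP1, which encodes fibulin-3, was listed at 0, 0 and 1.21 in shLTBP1 and at 0.346, 0 and 0 in shSCR libraries.

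Per kilobase of exon, the order of the 10 genes differed between the groups at LTBP1, ADAMTSL4 and HMCN1. In shLTBP1 libraries the means ran from LTBP3 (584), ADAMTSL4 (359.9), HMCN1 (44.1), LTBP2 (19.5), LTBP1 (7.95), LTBP4 (4.57), FBLN1 (3.04) and FBN1 (1.91) to FBN2 (0.45) and EFEMP1 (0.10). In shSCR libraries they ran from LTBP3 (552), LTBP1 (134), ADAMTSL4 (60.2), LTBP2 (21.2), LTBP4 (4.34), FBLN1 (2.62), HMCN1 (1.58) and FBN1 (1.36) to FBN2 (0.18) and EFEMP1 (0.029). Neighbours in the order whose libraries overlapped were LTBP4 with FBLN1, FBLN1 with FBN1, and FBN2 with EFEMP1 in shLTBP1. In shSCR they were FBLN1 with HMCN1, HMCN1 with FBN1, and FBN2 with EFEMP1. With the longest transcript as length, the order itself changed. In shLTBP1 FBLN1 then stood above LTBP4, and the overlaps were LTBP1 with FBLN1, FBLN1 with LTBP4, and FBN2 with EFEMP1. In shSCR FBN1 then stood above HMCN1, and the overlaps were LTBP4 with FBLN1, FBN1 with HMCN1, and FBN2 with EFEMP1. LTBP4 and FBLN1 thus also differed in order between the groups on this scale.

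The genes most like LTBP1 and HMCN1 across the 6 libraries were found by the root mean square distance between log2 profiles centred on their shSCR means, over 11471 genes with a mean of at least 50. Closest to LTBP1 were SLCO1B3, an anion transporter (distance 0.36), TNFSF13, a cytokine of the TNF family (0.39), and MARCHF4, a ubiquitin ligase (0.43). SLCO1B3 was at 11.4, 18.6 and 16.2 in shLTBP1 and at 191, 189 and 235 in shSCR libraries. MARCHF4 lies on chromosome 2. Closest to HMCN1 were SEMA3B, a secreted semaphorin (0.30), GJA1, a connexin (0.41), and KRT4, a keratin of squamous epithelia (0.45). SEMA3B was at 1284, 1286 and 1319 in shLTBP1 and at 50.9, 45.0 and 59.0 in shSCR libraries. A distance of this kind reflects mainly the difference between the 2 groups. SLCO1B3, TNFSF13 and MARCHF4 reached the minimum mean of 50 only through the shSCR libraries. GJA1, KRT4 and HMCN1 itself reached it only through the shLTBP1 libraries.

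Among 60 other genes of microfibrils, elastic fibres, their processing and the latent TGF-beta complex, 35 were high enough to test, 7 rose, 11 fell and 17 did not pass. The 18 that passed are 51.4% of those tested, near the 53.1% of all tested genes. Their median log2 fold change was -0.03. Without shSCR replicate 1 the genes that fell numbered 7, and likewise without shLTBP1 replicate 2. BGN, LOXL2 and HMCN2, and LUM among the fibroblast markers, reached the minimum mean of 10 only through the group in which they were higher.

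Of 6 other fibrillin, fibulin and hemicentin genes 3 were tested. FBN3, a further fibrillin gene, fell, and EFEMP2 and HMCN2 did not pass. FBN3 was at 157, 59.7 and 248 in shLTBP1 and at 383, 341 and 401 in shSCR libraries, a log2 fold change of -1.49 (standard error 0.40, limma adjusted p = 0.0111). It was -0.92 without shLTBP1 replicate 2, and the adjusted p was 0.053 without a mean trend in the variances. The core partners of fibrillins were scarce: MFAP2, MFAP4 and MFAP5, microfibril-associated glycoproteins, were below the minimum, and so were 6 of the 8 genes on the list of microfibril-associated and emilin genes that they belong to. On this list MMRN2, a multimerin related to the emilins, rose, with 234 ± 22.1 in shLTBP1 and 112 ± 12.7 in shSCR libraries (SD, n = 3 each; log2 fold change 1.05, adjusted p = 1.00e-04), and EMILIN1 did not pass. Of 9 other genes of the ADAMTSL family and of ADAMTS proteases of microfibrils, 5 were tested and ADAMTSL5 alone passed. ADAMTSL5 was at 134, 142 and 158 in shLTBP1 and at 76.4, 71.7 and 124 in shSCR libraries (log2 fold change 0.71, adjusted p = 0.0161). With the median of its neighbours subtracted, its log2 fold change was 0.47 and its adjusted p 0.0935, and it also lost its call without shSCR replicate 1, shSCR replicate 2 or shLTBP1 replicate 3 (adjusted p of 0.0568, 0.0582 and 0.053).

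Of 7 genes of elastin and its cross-linking 4 were tested, and 3 fell. That is 75.0% of the 4, beside 53.1% of all tested genes that passed and 26.8% that fell. ELN, the gene of elastin, was listed at 0 in all 6 libraries. The transglutaminase TGM2, which cross-links matrix proteins, was at 4084 ± 70.2 in shLTBP1 and 6436 ± 216 in shSCR libraries (log2 fold change -0.66, limma adjusted p = 1.75e-06), and was named after its values were seen. The lysyl oxidase relative LOXL2 was at 9.59 ± 4.01 in shLTBP1 and 22.4 ± 4.89 in shSCR libraries (log2 fold change -1.19, adjusted p = 0.0285). LOXL3 was at 38.3 ± 14.4 in shLTBP1 and 67.7 ± 19.2 in shSCR libraries (log2 fold change -0.84, adjusted p = 0.0457), and its libraries overlapped between the groups. LOXL2 reached the minimum mean only through the shSCR libraries. It lost its call without shSCR replicate 1 or 2 or without shLTBP1 replicate 1 or 2, with an adjusted p of 0.0528 to 0.102. LOXL3, on chromosome 2, was at -0.24 with the median of its neighbours subtracted (adjusted p = 0.543). It also lost its call with no filter, with no mean trend, and without shSCR replicate 1 or 3 or without shLTBP1 replicate 2 or 3 (adjusted p of 0.0705 to 0.161), and its log2 fold change was -0.54 without shLTBP1 replicate 2.

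Of the 5 genes of latent TGF-beta and its other carriers 2 were tested. TGFB1, a ligand that LTBP1 carries, fell to 1493 ± 83.4 in shLTBP1, against 2821 ± 62.3 in shSCR libraries, and TGFB3 did not pass. LRRC32, which encodes the cell surface carrier GARP, was below the minimum, at 6.18 to 18.3 in shLTBP1 and 1.01 to 3.34 in shSCR libraries, and was named after its values were seen. Of 5 matrix partners 3 were tested. FN1 (fibronectin), which LTBP1 needs for its incorporation into matrix, fell, at 232, 153 and 197 in shLTBP1 and 636, 616 and 643 in shSCR libraries. Its log2 fold change was -1.72, or -1.12 with the median of its neighbours on chromosome 2 subtracted (limma adjusted p = 5.12e-06 and 6.93e-05). BGN, which encodes the small proteoglycan biglycan, rose, at 60.2, 57.4 and 54.1 in shLTBP1 and 3.47, 0.853 and 0.783 in shSCR libraries (log2 fold change 4.57, standard error 0.46, adjusted p = 2.36e-05). BGN reached the minimum mean of 10 only through the shLTBP1 libraries. With a pseudocount of 5 its log2 fold change was 3.24. HSPG2 (perlecan) did not pass. Of the 8 fibroblast markers, LUM rose, but it too reached the minimum mean only through the shLTBP1 libraries. COL1A1 fell, with 805 ± 120.5 in shLTBP1 and 1213 ± 123 in shSCR libraries. DCN, which encodes the proteoglycan decorin, was below the minimum and not tested. It was at 0.774, 4.53 and 3.13 in shLTBP1 and listed at 0 in all 3 shSCR libraries. VCAN, also a matrix partner below the minimum, had a lower mean in shLTBP1 (0.465) than in shSCR libraries (0.894). The other 5 fibroblast markers (COL1A2, COL3A1, PDGFRB, THY1 and POSTN) stayed below 10 in every library. The part of other cells in these values was not tested.

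Of 10 proteases that process fibrillins or LTBPs 6 were tested, of which 3 rose and 1 fell. Those that passed are 66.7% of the 6, beside 53.1% of all tested genes. BMP1, a protease that cleaves LTBP1, was at 288 ± 23.9 in shLTBP1 and 136 ± 35.1 in shSCR libraries (SD, n = 3 each; log2 fold change 1.10, limma adjusted p = 3.98e-04). The proprotein convertase PCSK7 rose by 0.51 on the log2 scale. The membrane-bound metalloprotease MMP14 was at 1429 ± 279.9 in shLTBP1 and 4504 ± 168 in shSCR libraries (log2 fold change -1.67, adjusted p = 2.35e-06). All 10 enzymes that put sugars or hydroxyl groups on the repeats of fibrillins, LTBPs and ADAMTSL proteins were tested, of which 1 rose and 4 fell. GXYLT2, a xylosyltransferase, was at 137 ± 12.5 in shLTBP1 and 379 ± 36.2 in shSCR libraries (log2 fold change -1.46, adjusted p = 4.53e-06). POGLUT2, which puts glucose on the repeats of fibrillins and LTBP1, fell by 0.43 on the log2 scale (adjusted p = 0.0378), and lost this call with no filter, under the replicate block and without any 1 of 5 libraries. XXYLT1, a xylosyltransferase on chromosome 3, was at 0.40, and at -0.01 with the median of its neighbours subtracted (adjusted p = 0.954).

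**Figure D5:**
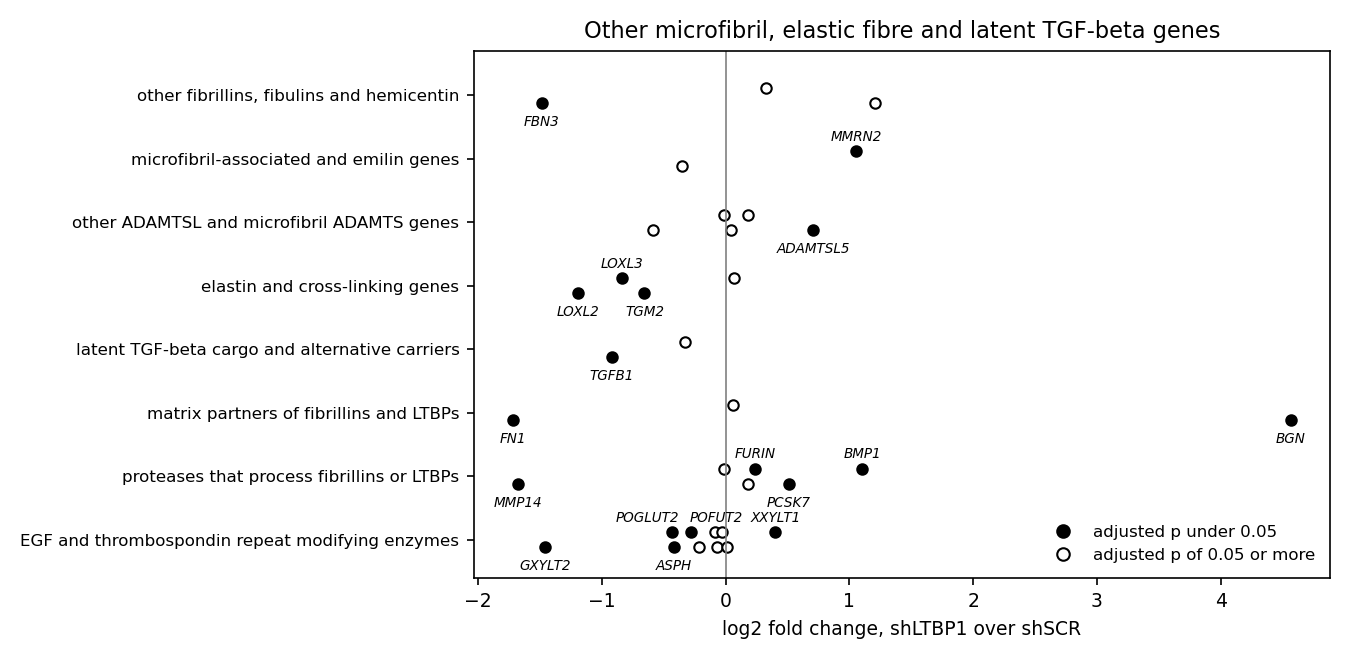
Log2 fold change, shLTBP1 over shSCR, of the 35 tested genes of the 8 other lists, 1 row per list, filled and named where the limma adjusted p was under 0.05. BGN at 4.57, which reached the minimum mean only through the shLTBP1 libraries, stands apart on the right. FN1 at -1.72 and MMP14 at -1.67 lie farthest to the left.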

How the data were processed

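Total RNA from 6 libraries of MKN28 cells was made into directional libraries with an MGI kit, per the labels. The submitters' processing notes list, without roles, the build hg38 and the tools RSEM 1.3.1, STAR 2.7.3a, DESeq2 and FastQC 0.10.1. Values in the deposited table are of the unit signal, being gene counts scaled by the authors in DESeq2 according to the table's name. How strand was handled in counting, which annotation was used and what was filtered were not given in the sources used here. Of values below 10, between 36.2% and 37.4% per library were whole multiples of the best step (within 0.1 of a step), so read counts were not recovered, no count test was run and sequencing depth is unknown.

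Values were taken as log2(value + 1), so fold changes of low genes are understated. Genes with a mean of at least 10 were fitted with limma 3.58.1 (R 4.3.3) with group as the only term and a mean trend in the variances. Two-sided p-values were adjusted over 12789 genes (Benjamini-Hochberg). The script was tested on simulated data. Positions and lengths came from GENCODE 29 (GRCh38; 19872 of 19960 identifiers matched), promoters from RefSeq (GRCh38.p14). Neighbour medians were taken per library over 25 tested genes on each side. The 10 genes, the lists and the rule for named genes (up to 2 rises and 2 falls per list) were chosen with earlier results of these data known. Alternatives were 3 scalings, 2 pseudocounts, 2 filters, 2 variance settings, the replicate number as a block, neighbour subtraction, leaving out each library, and another gene length. Deviations from group means of libraries with the same number were compared in the closing section.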

Additional observations from a re-analysis of the deposited data

How the results depend on the processing

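LTBP1, ADAMTSL4 and HMCN1 kept their direction and their call under all 17 alternatives, with log2 fold changes of -4.17 to -3.48, 2.44 to 2.60 and 4.63 to 5.15. LTBP2, LTBP3, LTBP4, FBN1 and FBLN1 passed under none of those run on them, and with a mean of at least 50 LTBP4, FBN1 and FBLN1 were not tested. Of these 5, some log2 fold changes near 0 changed sign: LTBP3 was at -0.071 and FBLN1 at -0.094 with neighbours subtracted, and FBLN1 was at -0.0026 with quantile normalization. With 1 library left out at a time, LTBP4 ran from -0.24 to 0.27 and FBLN1 from -0.30 to 0.46; the cause was not tested. XXYLT1 was at -0.0054 with neighbours subtracted. Leaving out 1 library, the other pathway genes that fell numbered 7 to 11, with fewer samples in each fit. Of all tested genes, 5822 to 6805 passed over the alternatives.

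Libraries with the same number did not deviate together (correlation across genes of -0.009, 0.058 and -0.001), so the numbers were not taken to pair them. With the replicate block 6755 genes passed, beside 6788 without it, and 3 of the 10 genes passed in both. Counting error cannot be given for FBN1, FBN2, LTBP4, FBLN1 and EFEMP1, whose low values limit what could be detected.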
